A study of Mus musculus with 6 samples.

Results

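The Serpina genes described here are 10 members of the A clade of serpins that the mouse liver secretes: Serpina1a, Serpina1b, Serpina1c, Serpina1d, Serpina1e, Serpina3k, Serpina3m, Serpina3n, Serpina6 and Serpina10. They were taken by gene symbol from the table of the whole series, with the 19 transcripts of these genes summed per symbol, and are 10 of 35970 symbols in all. The study put a guide RNA against Neurl1b into hepatocytes that repopulate an injured liver and asked how their ribosome-bound mRNA changed. There were 3 Neurl1b CRISPRi mice and 3 mice with a non-targeting guide, each mouse giving 1 library. All 6 mice were Fah-/-;dCas9+, meaning that they lacked fumarylacetoacetate hydrolase, an enzyme of tyrosine catabolism, and carried a cleavage-dead Cas9 that blocks transcription at the site a guide names (CRISPR interference, CRISPRi). All received, by hydrodynamic tail vein injection, 10 µg of a transposon plasmid that encodes the guide, Fah and ribosomal protein L10a fused to GFP, mixed with an adeno-associated virus that expresses Cre from the hepatocyte promoter TBG. Nitisinone, given before at 7.5 µg/mL, was then withheld, so that cells without Fah were at a disadvantage, and livers were taken 4 weeks later. Tagged ribosomes were pulled down from 400 mg of liver with an antibody to GFP (TRAP), so only cells that held the plasmid should contribute. The sources used here give neither the age of the mice nor the number of guides.

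Serpins are protease inhibitors that present a flexible reactive centre loop as bait. The protease cuts the loop, is swung across the molecule and stays trapped, and the letters around the cut decide which protease is caught. α1-Antitrypsin, the product of the Serpina1 genes, is one of the most abundant plasma proteins. In people it is made by SERPINA1 alone and protects tissue from neutrophil elastase. Mice carry a set of tandem copies, and which of their products inhibit elastase was not tested here. The Serpina3 genes are likewise an expanded mouse cluster related to human α1-antichymotrypsin. Serpina6 (corticosteroid-binding globulin) carries glucocorticoids and does not inhibit proteases, and Serpina10 (protein Z-dependent protease inhibitor) inhibits coagulation factor Xa with protein Z as cofactor. Several of these proteins rise in human or mouse plasma during the acute phase response to interleukin-6.

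The values were TPM, relative abundances that account for transcript length and keep no read depth, so the precision of a low value is unknown and no counting interval is given. The targeted gene, Neurl1b, was at 0.295, 0.351 and 0.307 TPM in Neurl1b CRISPRi mice and at 1.22, 0.897 and 0.688 TPM in non-targeting mice. The ratio of the means, CRISPRi over control, was 0.339. On the log2(TPM + 1) scale, which understates low genes, limma without a filter gave a log2 fold change of -0.55 (SE 0.11, adjusted p = 0.430 over 21941 genes). Fah was at 52.5 to 79.6 TPM in the CRISPRi mice and 52.9 to 71.4 TPM in the controls. The hepatocyte marker Alb was at 11518 to 16044 TPM and 12742 to 31253 TPM in the same order of groups. Of the 6 listed hepatocyte markers, 4 had a log2 fold change below 0, with a median of -0.43. Ttr was at -0.52 (SE 0.21) and Asgr1 at 0.23 (SE 0.16). The 8 listed macrophage markers summed to 63.5 to 96.1 TPM in CRISPRi mice and 43.9 to 73.7 TPM in control mice. Of the 6 tested macrophage markers, 0 had a log2 fold change below 0, against 26% of all tested genes. Of these 6, 3 were higher without overlap, against 12.5% of all tested genes, and the median was 0.57. Markers of stellate cells and fibroblasts, 8 genes, summed to 32.5 to 45.5 TPM in CRISPRi mice and 12.9 to 27.4 TPM in control mice without overlap, none of the 8 was at 0 in every library, and their part in the values below was not tested. The sums of 2 further lists overlapped between the groups. The 8 endothelial markers summed to 18.1 to 27.0 TPM in CRISPRi mice and 17.8 to 24.2 TPM in control mice. For the 8 cholangiocyte markers these sums were 19.2 to 29.1 TPM and 14.0 to 28.8 TPM. Non-targeting mouse 2 stood apart in the genes described here: each of the 10 members had its highest value in that library, as did 11.1% of all tested genes. The controls also differed from each other as libraries. Non-targeting mouse 2 correlated with the CRISPRi libraries at 0.9595 or less, and with non-targeting mice 1 and 3 at 0.9647 and 0.9776. Non-targeting mouse 1 correlated more with the CRISPRi libraries (0.9821 to 0.987) than with non-targeting mice 2 and 3 (0.9647 and 0.974). For non-targeting mouse 3 the CRISPRi values were 0.968 to 0.9761. The part of these differences in the group contrasts was not tested.

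The Serpina1 copies are close to identical, and the loop that meets the protease is where their products are known to differ. In the leading transcript of each gene, the aligned bases of any pair of the 5 copies were 94.7% to 98.5% identical. The stretch of 75 bases that codes for the hinge and the loop is shown for each copy, 5′ to 3′, from the GENCODE vM21 transcripts (chromosome 12), with capitals at the 18 positions where the 5 copies do not all have the same base.
Serpina1a: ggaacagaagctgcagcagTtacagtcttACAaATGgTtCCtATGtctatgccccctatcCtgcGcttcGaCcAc
Serpina1b: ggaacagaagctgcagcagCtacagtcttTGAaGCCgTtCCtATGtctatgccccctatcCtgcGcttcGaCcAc
Serpina1c: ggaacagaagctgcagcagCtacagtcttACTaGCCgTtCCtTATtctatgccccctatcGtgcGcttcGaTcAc
Serpina1d: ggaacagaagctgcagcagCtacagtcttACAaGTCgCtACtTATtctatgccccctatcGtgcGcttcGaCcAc
Serpina1e: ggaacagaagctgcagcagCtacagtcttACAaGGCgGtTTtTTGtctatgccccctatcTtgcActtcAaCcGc
The first 19 bases, which code for the conserved hinge, are the same in all 5 copies. Serpina1c and Serpina1d differed at the fewest positions, 5, and Serpina1e differed from the other copies at 10 to 12.

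This likeness limits how far the copies can be counted apart, since a read that falls in a shared stretch can only be divided between genes by estimation. Of the distinct words of 31 bases in the transcripts of Serpina1c, 14.2% were in no other gene, and 77.5% also lay in Serpina1a. The share found in no other gene was 34.8% for Serpina1a, 35.3% for Serpina1d, 45.8% for Serpina1e and 55.3% for Serpina1b. Serpina3k had 75.8%, Serpina3m 65.0% and Serpina3n 78.4%, and Serpina3k and Serpina3m shared words mostly with each other. Serpina10 had 98.8%, and Serpina6 shared no word with any gene. Levels of single Serpina1 copies are therefore uncertain, and the sum of the 5 is given beside them. The sum depends less on how reads were divided, but TPM are scaled by transcript length and 0.252% to 3.71% of the words lie only in genes outside the 10, so it is not free of that division.

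**Figure D1:**
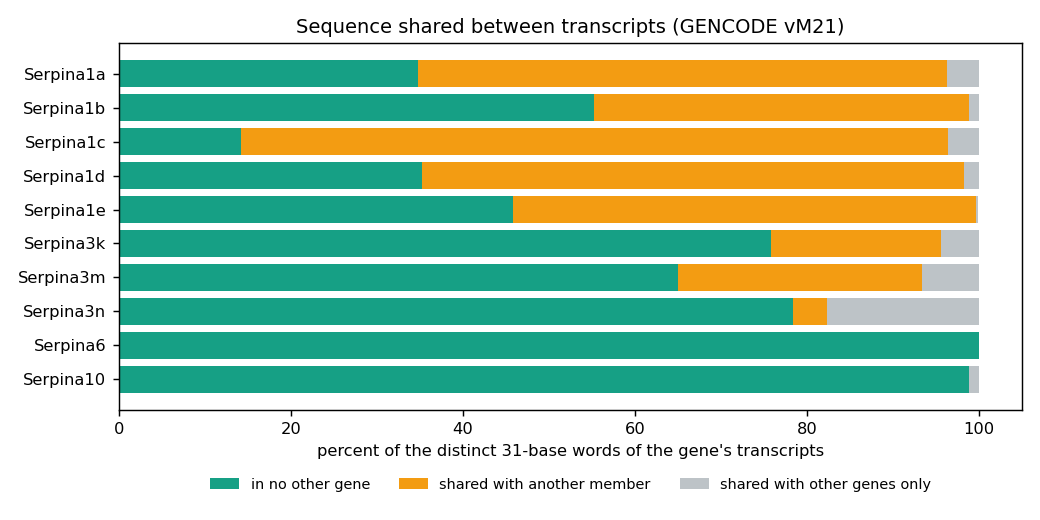
Share of the distinct 31-base words in the transcripts of each gene (horizontal axis, percent, GENCODE vM21) that lie in no other gene, in another of the 10 genes, or only in genes outside them. Serpina1c has the smallest part of its own, 14.2%, and Serpina6 shares none.

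The Serpina1 sum, the pooled message for α1-antitrypsin, was lower in the Neurl1b CRISPRi mice. It was 2937, 3382 and 3495 TPM in CRISPRi mice 1, 2 and 3, and 5037, 10448 and 4587 TPM in non-targeting mice 1, 2 and 3. The groups did not overlap, and the level in non-targeting mouse 2 was 2.17 times the mean of the other 2 controls. The means were 3272 ± 295 TPM in CRISPRi mice and 6690.4 ± 3262 TPM in control mice (SD, n = 3 each), a ratio of 48.9% to the controls. The log2 fold change was -0.93 (SE 0.30, 95% interval -1.61 to -0.26), which did not pass over all genes (limma, adjusted p = 0.333), and an exact permutation of the mice, two-sided, had p = 0.1, its lower limit for 3 against 3. Without non-targeting mouse 2 the log2 fold change was -0.56 (adjusted p = 0.510, range 0.0646 to 0.769 over the 16 alternatives), and both remaining controls were still above every CRISPRi mouse.

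As a share of the whole library, the 10 genes together held 0.395%, 0.443% and 0.437% of TPM in CRISPRi mice and 0.635%, 1.22% and 0.588% in non-targeting mice. Their log2 fold change as a sum was -0.86 (SE 0.27, limma adjusted p = 0.333). Of the 10 genes, all passed the filter on low values, 7 had lower values in every CRISPRi mouse than in any control mouse, against 4.57% of the 10598 tested genes, and none had higher values in every CRISPRi mouse, against 12.5%. The 7 include Serpina1e, whose mean was 0.818 TPM in CRISPRi mice, below the filter of 1 TPM, and 83.2 TPM in controls. Its highest CRISPRi value, 1.15 TPM, and its lowest control value, 1.75 TPM, are low values of unknown precision. At an unadjusted p below 0.05 there were 6, all lower, against 13.3% of tested genes in either direction and 3.19% lower, and at an adjusted p below 0.05 there were 0, against 0.0189% of tested genes (limma). The median log2 fold change was -0.72 over the 10 genes and 0.18 over all tested genes. The 10 genes lie in 1 cluster and were picked with earlier results of these data known. The Serpina1 copies, and to a lesser degree Serpina3k and Serpina3m, can also share reads. The counts therefore describe the 10 genes and do not set them apart. Without non-targeting mouse 2 there were again 7 that did not overlap, against 6.58% of tested genes. With median-of-ratios scaling the median log2 fold change was -0.93 over the 10 genes and 0.00 over all, 7 again did not overlap and were lower, and the tested genes without overlap split into 993 lower and 998 higher, against 484 lower and 1323 higher on the deposited scale. With non-targeting mouse 1 left out, Serpina1c, Serpina1d, Serpina3k and Serpina6 passed over all genes (limma adjusted p = 0.0291, 0.0370, 0.0481 and 0.0479, in that order of genes), in a fit that called 2436 genes higher and 237 lower.

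**Figure D2:**
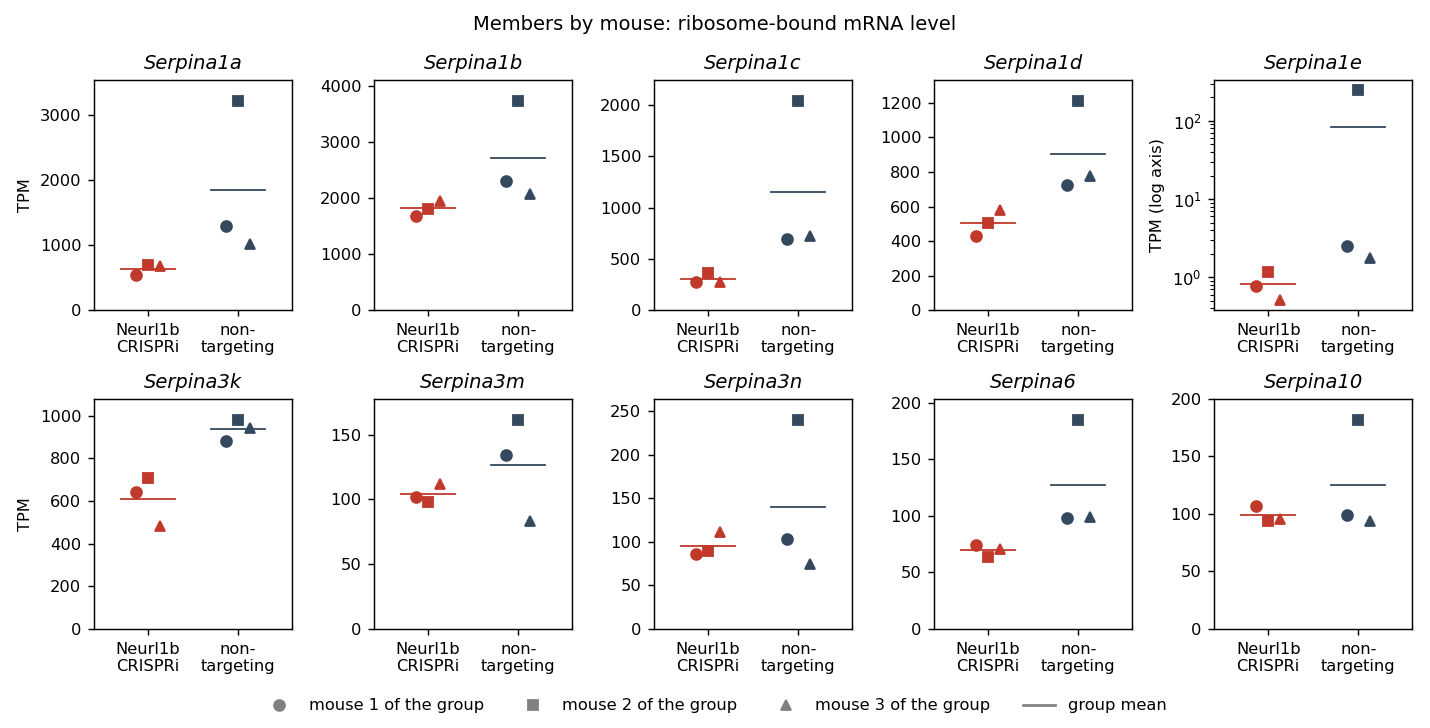
TPM of each of the 10 genes (vertical axes, linear from 0 except for Serpina1e, which has a log axis) in the 3 Neurl1b CRISPRi mice (red) and the 3 non-targeting mice (dark), with symbols for the mouse number and lines for the group mean. Non-targeting mouse 2 (dark square) is the highest point in every panel, and in 7 panels all red points lie below all dark ones.

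Serpina1b, the most abundant copy, had the smallest relative difference of the 5. Its level was 1692, 1816 and 1954 TPM in CRISPRi mice and 2315, 3740.1 and 2079.8 TPM in non-targeting mice. The lowest control mouse lay just above the highest CRISPRi mouse. On the log2 scale the difference was -0.53 (SE 0.23, limma adjusted p = 0.371), and -0.27 without non-targeting mouse 2.

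Of the 4 abundant copies, Serpina1a and Serpina1c had the larger differences. Serpina1a was at 538, 695 and 683 TPM in CRISPRi mice and at 1294, 3213 and 1013 TPM in non-targeting mice, with a log2 fold change of -1.35 (SE 0.38, limma adjusted p = 0.323) that was -0.85 without non-targeting mouse 2. Serpina1c was at 279.9, 367 and 278 TPM in CRISPRi mice and at 698, 2039 and 718 TPM in non-targeting mice. Its lowest control value was well above the highest CRISPRi value, its mean was 3.73-fold lower in the CRISPRi mice and 2.30-fold lower without non-targeting mouse 2 (fitted value -1.21), and it had the smallest p of the 10 genes (log2 fold change -1.72, SE 0.39, limma unadjusted p = 0.00186, adjusted p = 0.2925). Serpina1d lay between these and Serpina1b, with 427, 503 and 579 TPM in CRISPRi mice and 726, 1211 and 774 TPM in non-targeting mice (log2 fold change -0.82, SE 0.22, limma adjusted p = 0.323).

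Serpina1e was close to absent from 5 of the 6 libraries. It was at 0.784, 1.15 and 0.515 TPM in CRISPRi mice and at 2.53, 245 and 1.75 TPM in non-targeting mice. The single high value was that of non-targeting mouse 2, 115 times the mean of the other 2 controls. The group difference rests on that library: on the log2(TPM + 1) scale it was -2.89 (SE 1.46, limma adjusted p = 0.4035) with it and -0.79 without it. Since 45.8% of its 31-base words are its own, this gene can be told from the other copies better than Serpina1c can, but whether the reads of that library came from it was not tested.

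The make-up of the Serpina1 sum differed between the groups as well. Serpina1b held 57.6%, 53.7% and 55.9% of the sum in CRISPRi mice and 46.0%, 35.8% and 45.3% in the non-targeting controls. Serpina1c held 9.53%, 10.9% and 7.96% in CRISPRi mice, whereas the controls had 13.9%, 19.5% and 15.7%. Neither share overlapped between the groups (exact two-sided permutation p = 0.1 for each, the smallest possible), and both shares were most extreme in non-targeting mouse 2. The share of Serpina1d did overlap, at 14.5% to 16.6% in CRISPRi mice and 11.6% to 16.9% in control mice. Ratios within a library do not change with its scaling, but they do carry the estimated division of shared reads.

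**Figure D3:**
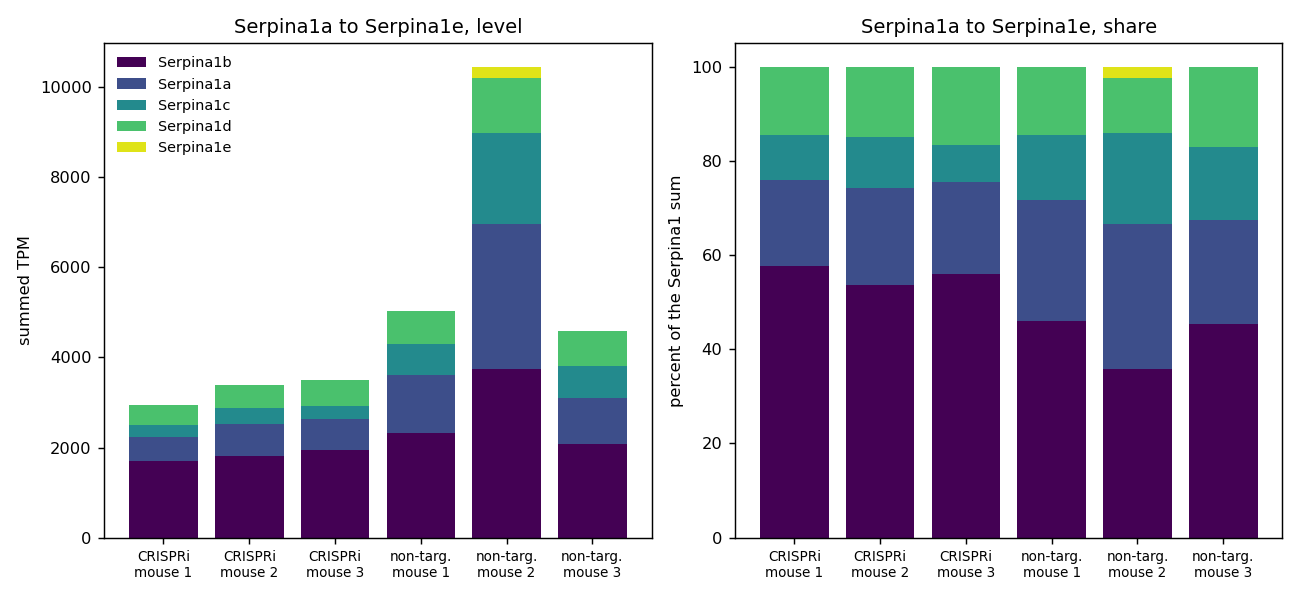
Summed TPM of Serpina1a to Serpina1e in each library (left) and the share of each copy in that sum in percent (right), with CRISPRi mice 1 to 3 before non-targeting mice 1 to 3. The sum is at most 3495 TPM in the CRISPRi mice and at least 4587 TPM in the controls, and Serpina1e is visible in non-targeting mouse 2 only.

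The promoters of the copies are near-identical too. In RefSeq promoters (GRCm38.p6), windows of 140 bases aligned on the letters GTTAAT had the same base in all 5 copies at 126 positions. GTTAAT is part of the element bound by HNF1, a liver transcription factor known to drive human SERPINA1. The windows of the copies with the smallest and the largest fitted difference among the 4 abundant ones, Serpina1b and Serpina1c, are shown with these letters in capitals; they differ at 5 positions.
Serpina1b: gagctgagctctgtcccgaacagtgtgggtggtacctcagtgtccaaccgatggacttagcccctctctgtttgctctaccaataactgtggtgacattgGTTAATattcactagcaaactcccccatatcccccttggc
Serpina1c: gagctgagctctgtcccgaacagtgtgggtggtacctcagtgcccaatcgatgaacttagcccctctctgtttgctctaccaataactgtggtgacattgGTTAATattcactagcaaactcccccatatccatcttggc
The window of Serpina1b is chr12:103738176-103738315 and that of Serpina1c chr12:103904938-103905077, both on the minus strand, and GTTAAT begins 26 and 27 bases before the annotated start. Of the 10 genes, 6 matched a RefSeq promoter of 300 bases, the 5 copies and Serpina3n. GTTAAT or its reverse complement was in the promoters of all 5 copies and not in that of Serpina3n, and in 7.10% of 32851 promoters. TTCNNNGAA, the letters of a STAT element, was in none of the 6 and in 8.30% of all promoters. TTGCNNAA, the letters of a C/EBP element on either strand, was in 4 of the 6 (Serpina1a, Serpina1b, Serpina1d and Serpina1e) and in 10.8% of all. A match of letters is a description and not a binding site.

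Of the Serpina3 genes, Serpina3k had groups that did not overlap. Serpina3k, whose product contrapsin inhibits trypsin, was at 644, 706 and 484 TPM in CRISPRi mice and at 883, 982 and 942 TPM in non-targeting mice. Its 3 control mice lay close together and above every CRISPRi mouse, and non-targeting mouse 2 was 1.08 times the mean of the other controls, the smallest such ratio of the 10 genes. The means were 611 ± 115 TPM in CRISPRi mice and 936 ± 49.7 TPM in control mice (SD, n = 3 each), with a log2 fold change of -0.63 (SE 0.18, limma adjusted p = 0.323; exact two-sided permutation p = 0.1).

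The groups overlapped for Serpina3m and Serpina3n, and the share of Serpina3k in the Serpina3 sum overlapped as well, at 68.2% to 78.8% in CRISPRi mice and 70.8% to 85.3% in control mice (exact two-sided permutation p = 0.5). Serpina3m was at 102, 98.1 and 112 TPM in CRISPRi mice and at 134, 162 and 83.6 TPM in non-targeting mice (log2 fold change -0.23, SE 0.24, 95% interval -0.78 to 0.32, limma adjusted p = 0.624). Serpina3n, which in the mouse inhibits granzyme B and is induced in inflammation, was at 86.1, 89.6 and 111 TPM in CRISPRi mice and at 103, 240.4 and 75.1 TPM in non-targeting mice. Its high value in non-targeting mouse 2 set the sign of the difference, which was -0.37 (SE 0.38, limma adjusted p = 0.615) with that library and 0.11 without it. The other Serpina3 genes in the table, 8 symbols, summed to 2.71 to 3.94 TPM in CRISPRi mice and 2.64 to 3.77 TPM in controls. The sum of all 11 was 836, 897 and 709 TPM in CRISPRi mice and 1123, 1386 and 1104 TPM in non-targeting mice, with a log2 fold change of -0.56 (SE 0.17, limma adjusted p = 0.323) that passed at an adjusted p of 0.0466 when non-targeting mouse 1 was left out (range 0.0466 to 0.768 over the 16 alternatives).

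Serpina6, the carrier of corticosterone in plasma, was lower in the CRISPRi mice, and it shared no 31-base word with another gene. Its level was 74.0, 63.4 and 70.8 TPM in CRISPRi mice and 98.2, 185 and 99.4 TPM in non-targeting mice. The groups did not overlap, with 69.4 ± 5.43 TPM in CRISPRi mice and 128 ± 49.8 TPM in controls (SD, n = 3 each). On the log2 scale the difference was -0.81 (SE 0.25, limma adjusted p = 0.331), and -0.51 without non-targeting mouse 2.

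Serpina10 did not separate the groups. It was at 106, 93.7 and 96.0 TPM in CRISPRi mice and at 99.2, 182 and 94.1 TPM in non-targeting mice. With the exception of non-targeting mouse 2, its values spanned a narrow range, and the log2 fold change of -0.27 (SE 0.25, 95% interval -0.85 to 0.30, limma adjusted p = 0.581) was 0.03 without that mouse. The messages of its cofactor and its target, protein Z (Proz) and factor X (F10), were chosen for naming after their values were seen. Proz was at 40.4 to 43.7 TPM in CRISPRi mice and 45.9 to 80.1 TPM in controls, and F10 at 189 to 209.6 TPM and 206 to 316 TPM in the same order of groups.

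**Figure D4:**
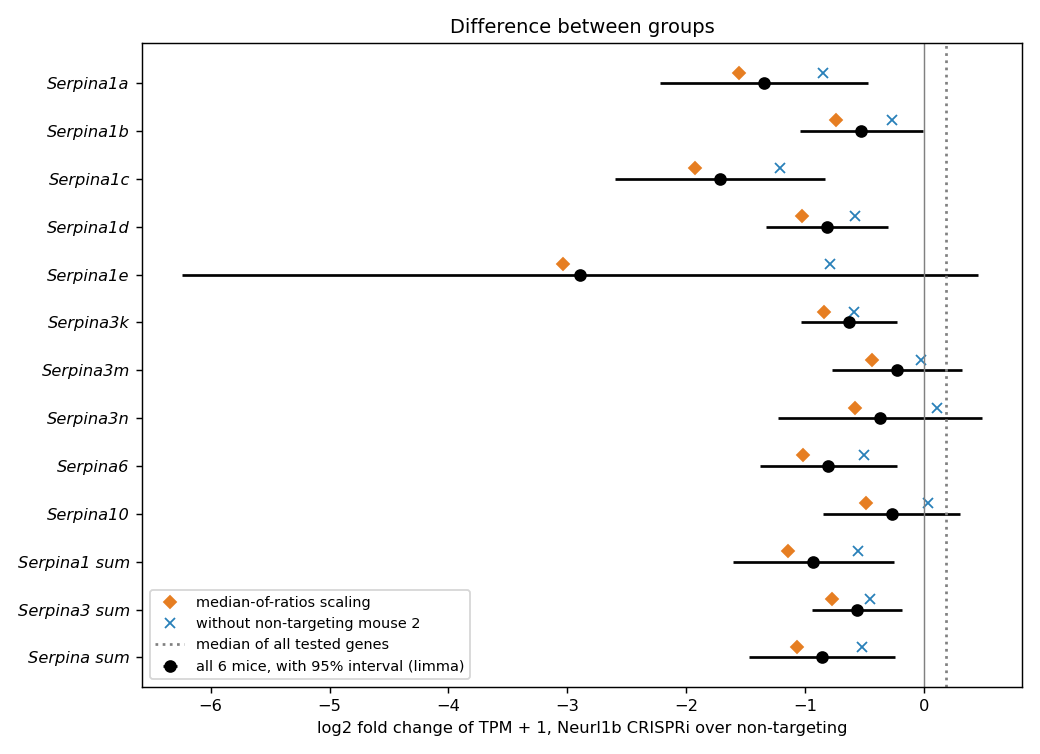
Log2 fold change of TPM + 1, Neurl1b CRISPRi over non-targeting (horizontal axis), for each gene and for the sums, with the 95% interval from limma for all 6 mice (black), the value after median-of-ratios scaling (orange) and the value without non-targeting mouse 2 (blue). Leaving that mouse out moves all but Serpina3k by over 0.1 towards higher values, and takes Serpina3n and Serpina10 past 0.

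Each of the 7 genes that did not overlap also did not overlap in its leading transcript alone. That transcript held 72.5% to 88.5% of Serpina1a and 90.7% to 97.0% of Serpina1b across the libraries, and 4 of the 10 genes had 1 transcript in the table. These were Serpina1c, Serpina1d, Serpina3k and Serpina3n, for which the leading transcript is the gene value itself. The lesser transcripts of the other genes among the 7, Serpina1a, Serpina1b, Serpina1e and Serpina6, all overlapped between the groups. The most abundant of them, of Serpina1a, was at 140 to 163 TPM in CRISPRi mice and 113 to 494 TPM in control mice. A lesser transcript of Serpina1b was at 65.6 to 70.8 TPM in CRISPRi mice and at 149, 50.4 and 25.5 TPM in non-targeting mice. By gene order in GENCODE vM21, where the A clade has 28 genes on chromosome 12, Serpina10 and Serpina6 are followed by the Serpina1 copies in the order b, d, a, c and e, then by Serpina11, while Serpina3k, Serpina3m and Serpina3n stand at the far end. Along this order the fitted differences from Serpina1b to Serpina1e were -0.53, -0.82, -1.35, -1.72 and -2.89, and without non-targeting mouse 2 they were -0.27, -0.59, -0.85, -1.21 and -0.79. The neighbour Serpina11 was at 8.77, 9.92 and 14.8 TPM in CRISPRi mice and at 11.5, 43.3 and 11.1 TPM in non-targeting mice, with a log2 fold change of -0.67 (SE 0.47, limma adjusted p = 0.493). Its ratio of means, CRISPRi over control, was 0.507 with all mice and 0.984 without non-targeting mouse 2.

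Other serpins of the table went both ways. Among those named, the log2 fold change was below 0 for Serpina11, Serping1, Serpind1, Serpina7, Serpinf2, Serpinb1a and Serpinf1. It was above 0 for Serpinc1, Serpinb6a and Serpinb6b. Of 59 further symbols that begin with Serpin, 19 were tested, and 0 passed at an adjusted p of 0.05 (limma). At an unadjusted p below 0.05 there were 2 lower and 3 higher (limma), against 3.19% of all tested genes lower and 13.3% in either direction. Without overlap there were 3 lower and 3 higher, against 4.57% and 12.5% of all tested genes. The median log2 fold change was 0.07, against 0.18 over all tested genes. Antithrombin (Serpinc1), the main inhibitor of thrombin, overlapped between the groups, with 1585, 1607 and 1522 TPM in CRISPRi mice and 1578, 1463.5 and 1341 TPM in non-targeting mice (log2 fold change 0.11, SE 0.14). Heparin cofactor II (Serpind1) was at 65.9 to 76.3 TPM in CRISPRi mice and 89.4 to 149.8 TPM in controls (log2 fold change -0.60, SE 0.21), and C1 inhibitor (Serping1) at 84.1 to 106 TPM and 109 to 240.1 TPM in the same order (-0.64, SE 0.30). The intracellular inhibitors Serpinb6a and Serpinb6b went the other way, with 111 to 154 TPM in CRISPRi mice against 16.3 to 76.1 TPM in controls for Serpinb6a (log2 fold change 1.66, SE 0.49) and one of 1.67 (SE 0.57) for Serpinb6b. Serpinf1, Serpinf2, Serpina7 and Serpinb1a overlapped between the groups, with log2 fold changes of -0.01, -0.22, -0.29 and -0.04, and adjusted p in limma was 0.323 to 0.969 over the named serpins other than the 10. Relative to antithrombin in the same library, a ratio chosen after the values were seen, the Serpina1 sum stood at 1.85, 2.10 and 2.30 in CRISPRi mice and 3.19, 7.14 and 3.42 in non-targeting mice, and relative to Alb at 0.255, 0.270 and 0.218 in the mice with CRISPRi, where the controls stood at 0.297, 0.334 and 0.360. Relative to Alb the Serpina3 sum overlapped, at 0.0726, 0.0716 and 0.0442 in CRISPRi mice and 0.0662, 0.0444 and 0.0867 in non-targeting mice (exact two-sided permutation p = 0.9). Serpina1b, Serpina1d, Serpina3k and Serpina6 overlapped relative to Alb as well. Serpina1a did not, at 0.0426 to 0.0555 in CRISPRi mice and 0.0762 to 0.103 in controls, nor did Serpina1c, at 0.0173 to 0.0293 and 0.0411 to 0.0652 in the same order.

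Acute phase reactants, plasma proteins that the liver makes in inflammation, showed the same library apart. Their 21 genes summed to 14724, 15918 and 17659.8 TPM in CRISPRi mice and to 18306.5, 37465 and 16085 TPM in non-targeting mice, and 20 of 21 were highest in non-targeting mouse 2. The peak was not particular to this list. Of 19 abundant plasma protein genes 15 were highest in that library, and of 11 tested proteases and partners 10. The count was 8 of 26 for folding and quality control, 5 of 15 for liver transcription factors and 1 of 10 for glucocorticoid handling. Of the 21, 8 did not overlap and were lower in the CRISPRi mice, against 4.57% of all tested genes, 7 had an unadjusted p below 0.05, all lower, against 3.19% of all tested genes lower, and 0 passed after adjustment (limma), with a median log2 fold change of -0.84. Serum amyloid A2 (Saa2) was at 24.7, 25.5 and 17.0 TPM in CRISPRi mice and at 67.0, 2631 and 94.9 TPM in non-targeting mice. Crp (C-reactive protein) was at 24.0, 33.7 and 29.5 TPM in CRISPRi mice and at 54.1, 126 and 43.2 TPM in non-targeting mice (log2 fold change -1.18, SE 0.36). Itih4 was at 109, 133 and 196 TPM in CRISPRi mice and at 210.5, 1470.0 and 379 TPM in non-targeting mice (log2 fold change -1.78, SE 0.61). Without non-targeting mouse 2 the means in CRISPRi mice were lower by 3.61-fold for Saa2, 1.67-fold for Crp and 2.02-fold for Itih4, against 41.6-fold, 2.56-fold and 4.71-fold with it. The part of this response in the values of the Serpina genes was not tested. Neutrophil markers, 8 genes of which 2 were tested, summed to 3.50 to 18.9 TPM in CRISPRi mice and to 8.27, 59.0 and 9.48 TPM in non-targeting mice.

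**Figure D5:**
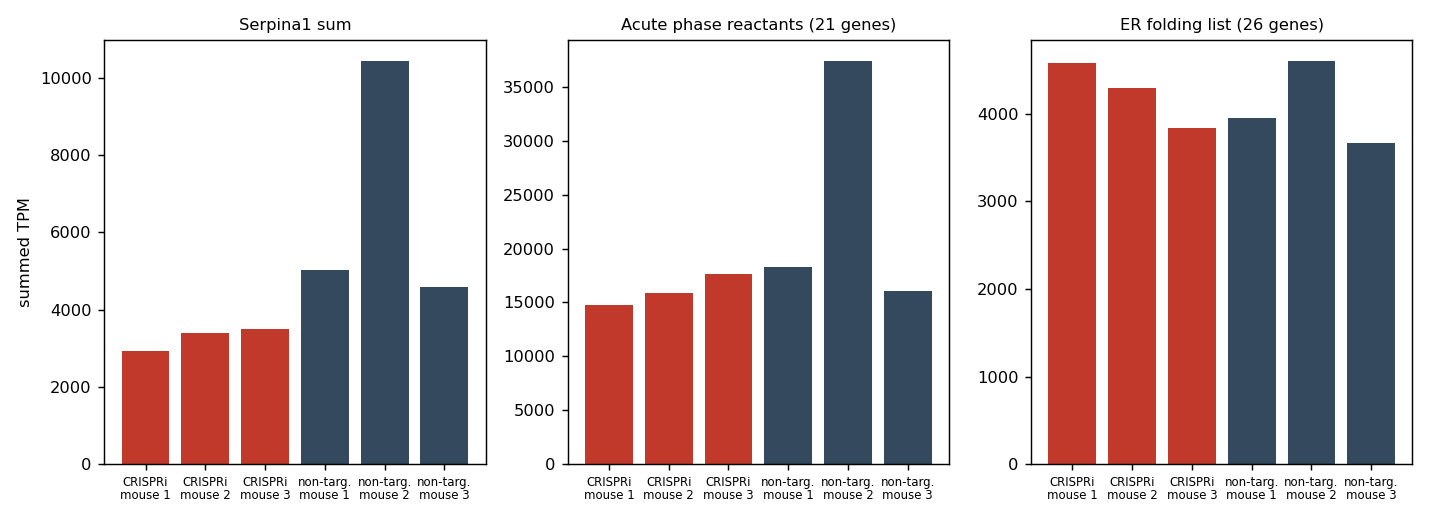
Summed TPM in each library of the Serpina1 copies (left), of 21 acute phase reactants (middle) and of 26 genes for folding and quality control in the endoplasmic reticulum (right), with CRISPRi mice in red before non-targeting mice in dark. Non-targeting mouse 2 reaches 10448 and 37465 TPM in the first and second panels, and the third panel has no such peak.

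The counts in the lists of genes that act around the serpins stand beside the shares over all tested genes. At an unadjusted p below 0.05 these were 13.3% in either direction and 3.19% lower (limma). Of 26 genes for folding and quality control of secreted proteins, 0 passed after adjustment, and at an unadjusted p below 0.05 there were 0 lower and 1 higher (limma), Edem2, which marks misfolded glycoproteins including α1-antitrypsin for disposal (102, 97.5 and 72.4 TPM in CRISPRi mice against 66.2, 53.2 and 60.6 TPM in controls). The median log2 fold change of this list was 0.09, below that of all tested genes. Of 12 tested genes of interleukin-6 signalling, 0 were lower and 1 higher at an unadjusted p below 0.05, Cebpd, with a log2 fold change of 0.58 (SE 0.18, limma adjusted p = 0.335). Of 15 liver transcription factors, Onecut1 was the 1 with p below 0.05 that was lower (-0.70, SE 0.20) and Esrra the 1 that was higher (0.48, SE 0.18). Of 10 tested genes of glucocorticoid handling, the steroid-activating enzyme gene Hsd11b1 had a log2 fold change of -0.91 (SE 0.32) and the glucocorticoid-induced phosphatase gene Dusp1 one of 1.04 (SE 0.27), both short of the adjusted threshold. Of 19 abundant plasma protein genes, 3 were lower at an unadjusted p below 0.05 and 0 higher, Vtn, Itih1 and Ttr, with a median log2 fold change of -0.39 for the list.

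Among proteases and partners of these serpins, 11 of 16 genes were tested and 0 passed after adjustment (limma). Ctsl (cathepsin L) was at 1023, 879 and 1009 TPM in CRISPRi mice and at 707, 408 and 496 TPM in non-targeting mice, a log2 fold change of 0.89 (SE 0.21, limma adjusted p = 0.310). Klkb1 (plasma kallikrein) was the 1 gene lower at an unadjusted p below 0.05, with 8.29, 10.00 and 16.6 TPM in CRISPRi mice and 13.3, 31.4 and 20.6 TPM in non-targeting mice (log2 fold change -0.83, SE 0.34, limma adjusted p = 0.363). Prtn3 (proteinase 3), a neutrophil protease that human α1-antitrypsin inhibits, was at 0.492, 1.21 and 1.27 TPM in CRISPRi mice and at 2.18, 265 and 2.29 TPM in non-targeting mice. As with Serpina1e, its 1 high value was that of non-targeting mouse 2. Neutrophil elastase (Elane), below the filter and named after its values were seen, reached 0.907 TPM in that library and at most 0.372 TPM in the others.

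The genes most like the Serpina1 sum over the 6 libraries, by Pearson correlation of log2(TPM + 1) among tested genes outside the serpins, were Pnpla7, Rdh16f2, Synj2bp, Crp and Afm, with r of 0.990 to 0.999. Pnpla7, a lysophospholipase gene, was at 59.6, 68.0 and 71.8 TPM in CRISPRi mice and at 109.6, 234 and 98.0 TPM in non-targeting mice. Those most like Serpina3n were Cfi, Cables2, Apoa1, Cp and Tbc1d2b, with r of 0.983 to 0.996. With non-targeting mouse 2 left out, r over the remaining 5 libraries was 0.971 to 0.999 for the first set and 0.855 to 0.979 for the second. These values describe 6 libraries, of which 1 lies far from the rest, and they were picked as the highest of 10569 genes.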

How the data were processed

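TRAP-seq libraries of 6 mice, 3 per group, were given by the authors as 1 table of TPM for 117486 transcripts, deposited without counts. Per the submitters' processing notes kallisto was used with mm39; the version is not given in the sources used here. TPM were summed by gene symbol, each library totalling 1000000 within rounding, and depth is unknown. Log2(TPM + 1) of the 10598 genes with a mean of at least 1 TPM was fitted with limma 3.58.1 in R 4.3.3 (trended prior, Benjamini-Hochberg adjusted p below 0.05), tested on simulated data. Fold changes are on the log2(TPM + 1) scale and understate low genes. Sums replaced their members in the same fit, and single values had an exact two-sided permutation test, whose smallest p is 0.1. Nothing states more than that the mice are separate, so p-values measure the spread between these mice. Named were the 10 genes, label checks, other serpins with a mean of at least 10 TPM, up to 3 genes of smallest p per list and the 5 most correlated genes. The members and the lists were chosen with earlier results of these data known. Alternatives were pseudocounts of 0.1 and 5, other filters, scalings and priors, a replicate block, and each mouse left out. Sequences came from GENCODE vM21 transcripts, matched by ID without version, and RefSeq promoters of GRCm38.p6. Both are of another build than the table, so no coordinate was joined to it.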

Additional observations from a re-analysis of the deposited data

How the results depend on the processing

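Direction and side of the threshold held for 144 of 150 member values under the 15 alternatives; 4 passed the threshold only without non-targeting mouse 1, and 2 reversed without non-targeting mouse 2, Serpina3n at 0.1074 (range -0.7249 to 0.1074 with single mice left out) and Serpina10 at 0.02850 (range -0.4429 to 0.02850). With single mice left out, the log2 fold change ranged between -1.15 and -0.56 for the Serpina1 sum, between -0.64 and -0.46 for the Serpina3 sum, which passed at -0.61 (adjusted p = 0.0466) without non-targeting mouse 1, and between -1.05 and -0.53 for the sum of all 10. The number of the 10 genes that were lower without overlap was 7 to 8, beside 4.57% of all tested genes with all mice, 5.69% to 8.84% with single mice left out (8.84% where 8 were counted) and 12.2% under the highest setting. Over all genes limma called 2 higher and 0 lower (1408 at an unadjusted p below 0.05), 0 higher with a pseudocount of 5, without a filter and with quantile normalization, and 1 with a minimum of 5 TPM; with single mice left out it called 0 to 2436 higher and 0 to 237 lower. The cause was not tested. The labels state no pairing of the mice by number. Deviations of same-numbered mice correlated at 0.0614, -0.096 and -0.277, and those of other pairs at -0.17 to 0.222. With 3 mice per group these values cannot tell whether the numbers pair the mice. With mouse number as a block the Serpina1 sum kept its -0.93 (adjusted p = 0.203), the Serpina3 sum its -0.56 (adjusted p = 0.264) and the sum of all 10 its -0.86 (adjusted p = 0.206), and limma called 2 genes higher and 0 lower. Of the 10 genes, Serpina1c had the lowest adjusted p with the block, 0.0734 (limma), against 0.2925 without it. Median-of-ratios scaling of the 5 libraries other than non-targeting mouse 2, chosen after seeing the data, put the Serpina1 sum at -0.71. TPM hold no depth, so precision at low values such as Serpina1e could not be given.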
